A study of Rattus norvegicus with 8 samples.

Results

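Rat primordial germ cell-like cells recovered from reconstituted gonads (group PGCLC_d3ag3) were compared with the epiblast-like cells (group EpiLC) from which the protocol derives them. The members were chosen by group label: the 2 PGCLC_d3ag3 and 2 EpiLC libraries were set against each other over all 22228 named genes, so 4 of the 8 RNA sequencing libraries of the study were compared. The other 4 libraries, of embryonic stem cells and of day 3 germ cell-like cells (group PGCLC_d3), entered the shared estimate of spread and are cited for context. All groups came from embryonic stem cells of the rat strain Crlj:WI and carry the genotype label wild type. For PGCLC_d3ag3, EpiLC aggregates were kept for 3 days with BMP4 at 500 ng/ml, rat LIF at 1000 U/ml, SCF at 100 ng/ml and EGF at 50 ng/ml. Cells positive for a tdTomato reporter at the Nanos3 gene were then sorted, and 5000 of them were combined with 50000 gonadal somatic cells from female E15.5 fetuses (E marks the embryonic day). These somatic cells had been depleted of c-KIT positive germ cells. After 3 days of aggregation in N2B27 medium with 5% serum replacement, reporter-positive cells were sorted again. EpiLC were stem cells cultured as aggregates for 60 h in activin A (20 ng/ml), bFGF (12 ng/ml) and 1% serum replacement, and no sort is stated for them. The groups therefore differ in time, medium, sorting and contact with gonadal cells, and these cannot be told apart. Whether the 2 libraries of a group derive from independent cultures is not stated, and the p-values hold only for the spread between libraries, which may be technical.

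Primordial germ cells are the founders of sperm and eggs. In rodents they are set aside from the epiblast in response to BMP, under PRDM1, PRDM14 and TFAP2C, and they regain part of the pluripotency network while shutting off the de novo DNA methylation machinery. On reaching the gonad they switch on a second programme with DAZL, DDX4 and genes that guard the germline against transposons or prepare meiosis, many of which are silenced in other cells by promoter methylation and by the repressor complex PRC1.6.

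The deposited values are log2(TPM+1), where TPM is a transcript abundance scaled by gene length and library size. They are given here as TPM per library, always in the order replicate 1 and replicate 2, and as differences of group means of log2(TPM+1), PGCLC_d3ag3 minus EpiLC. For genes with low values such a difference is smaller than the true change, and list medians depend on the pseudocount. With log2(TPM+5) 27 of the 44 list medians moved by more than the spread between replicates, and across all alternatives the median of gonadal germ cell genes lay between 0.67 and 2.21, that of meiosis genes between 0.54 and 1.74, that of naive genes between 0.61 and 1.70 and that of WNT targets between 0.27 and 1.44. A gene was called higher or lower at a Benjamini-Hochberg adjusted p under 0.05 in limma, over 13571 genes with at least 1 TPM in at least 2 of the 8 libraries. Replicates correlated across tested genes with Pearson r = 0.9946 in PGCLC_d3ag3 and r = 0.9968 in EpiLC, and the median gene differed between replicates by 0.131 and 0.093 on the log2 scale. Genes, not samples, are the points of these correlations. TPM holds no read totals, but steps between low values put the relative depth of the PGCLC_d3ag3 libraries at 1.87 and 2.04 and of the second EpiLC library at 1.29, with the first EpiLC library set to 1. In bulk RNA, fewer cells with a transcript and less of it per cell cannot be told apart.

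Most of the transcriptome differed between the groups. Of the tested genes 10546 (77.7%) were called, 5563 (41.0%) higher and 4983 (36.7%) lower in PGCLC_d3ag3. Requiring a difference of at least 1 on the log2 scale left 2335 higher genes (17.2%) and 2301 lower genes (17.0%). At least 4 on that scale separated the groups for 92 higher and 98 lower genes. Listed under 1 TPM in both EpiLC libraries and at 10 TPM or more in both PGCLC_d3ag3 libraries were 87 genes, and 90 genes had the opposite pattern. The median tested gene differed by 0.05, and by 0.004 after median-of-ratios rescaling; TPM are scaled to a common total, so this value does not show whether changes balanced. With so many genes called, counts for gene groups below are read against these background shares.

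**Figure D1:**
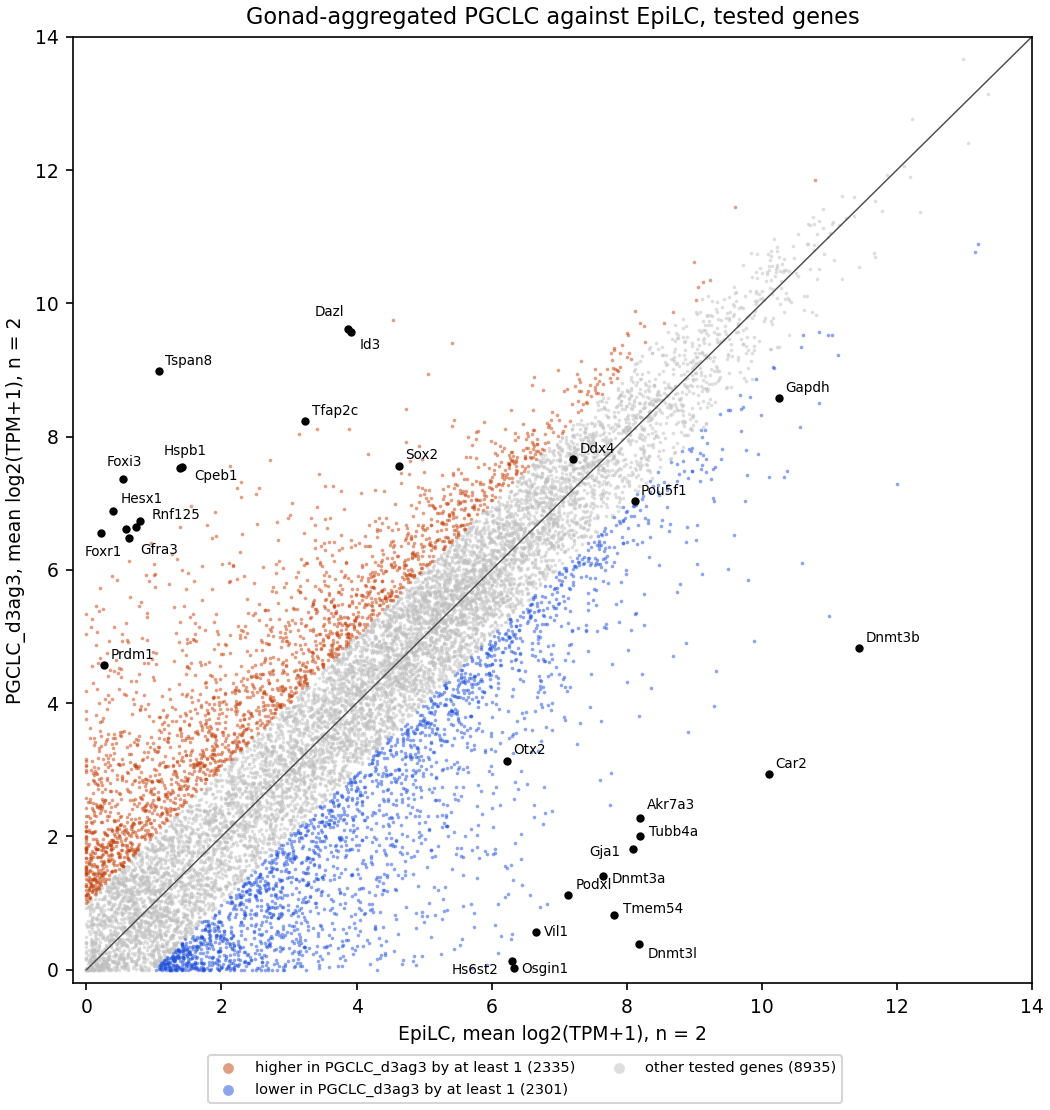
Mean log2(TPM+1) in PGCLC_d3ag3 (vertical axis) against EpiLC (horizontal axis), each over 2 libraries, with one point per tested gene and the line of equality. Black points mark the 12 largest rises, the 12 largest falls and 7 reference genes, most of them labelled. Clone-style symbols such as LOC were not ranked. Tspan8 and Dazl lie far above the line, Dnmt3b and Car2 far below it, and Ddx4 close to it.

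The largest rises were led by genes of several kinds. Tspan8, which encodes a tetraspanin of the cell surface, had 498 and 509 TPM in PGCLC_d3ag3, against 0.539 and 1.85 TPM in EpiLC. This difference of 7.91 (SE 0.22, adjusted p = 1.8e-09) was the largest rise among genes with a mean of at least 10 TPM. The forkhead factor gene Foxi3 followed with 162 and 166 TPM in PGCLC_d3ag3, against 0.599 and 0.332 TPM in EpiLC, a difference of 6.82, and the related Foxr1 with 87.5 and 99.6 TPM in PGCLC_d3ag3, against 0 and 0.352 TPM in EpiLC, a difference of 6.34. Hesx1, a homeobox gene of the early forebrain and pituitary, stood at 108 and 126 TPM in PGCLC_d3ag3, against 0.269 and 0.348 TPM in EpiLC. In PGCLC_d3 its level was 6.89 and 7.23 TPM. Cpeb1, which encodes a cytoplasmic polyadenylation factor active in germ cells, had 182 and 187 TPM in PGCLC_d3ag3, against 1.19 and 2.24 TPM in EpiLC. The other large rises were the small heat shock gene Hspb1 (6.15), the ubiquitin ligase gene Rnf125 (5.94), the lipid enzyme gene Mogat2 (5.90), the GDNF family receptor gene Gfra3 (5.85), Psmb8, Dazl and Id3. The groups did not overlap for any of these 12 genes, which the selection required.

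DNA methylation genes were among the largest falls. Dnmt3l, Dnmt3b and Dnmt3a were 3 of the 12 largest falls, ranked by the same rule, and they are described with the methylation genes. Car2, a carbonic anhydrase gene, had 7.17 and 6.2 TPM in PGCLC_d3ag3, against 1121 and 1078 TPM in EpiLC, a difference of -7.16 (SE 0.12, adjusted p = 1.3e-10). Several others encode proteins of epithelial surfaces and junctions. The villin gene Vil1 had 0.501 and 0.458 TPM in PGCLC_d3ag3, against 101 and 98.4 TPM in EpiLC. The gap junction gene Gja1 had 2.55 and 2.45 TPM in PGCLC_d3ag3, against 262 and 283 TPM in EpiLC. Podxl, which encodes podocalyxin of the apical membrane, had 0.993 and 1.36 TPM in PGCLC_d3ag3, against 128 and 150.2 TPM in EpiLC. Both PGCLC_d3ag3 libraries were under 3 TPM for all 3. The remaining falls were Tmem54 (-7.0), the heparan sulfate enzyme gene Hs6st2 (-6.31), the tubulin gene Tubb4a (-6.19), Osgin1 (-6.17) and the aldo-keto reductase gene Akr7a3 (-5.92).

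Most germ cell specification genes were higher in PGCLC_d3ag3. Nanos3, whose reporter was used for sorting and which is therefore no independent finding, had 17.2 and 15.6 TPM in PGCLC_d3ag3, against 0.702 and 0.905 TPM in EpiLC. Prdm1, which encodes a repressor of the somatic programme, had 22.2 and 23.4 TPM in PGCLC_d3ag3, against 0.142 and 0.266 TPM in EpiLC. Prdm14, which helps restore pluripotency and restrain methylation in mouse germ cells, had 39.7 and 35.4 TPM in PGCLC_d3ag3, against 0 and 0.123 TPM in EpiLC. Tfap2c, the transcription factor gene of the same trio, had 307 and 294 TPM in PGCLC_d3ag3, against 8.22 and 8.71 TPM in EpiLC. Each was under 10 TPM in EpiLC. All 3 genes of the trio were separate between groups by more than the spread of replicates, with differences of 4.31, 5.18 and 4.99 (SE 0.12, 0.11 and 0.062; limma adjusted p at most 1.6e-09). In PGCLC_d3 all 3 stood higher still, Prdm1 at 67.6 and 65.4 TPM, Prdm14 at 88.7 and 83.4 TPM and Tfap2c at 487 and 498 TPM, so the aggregated cells held an intermediate level.

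Genes for germ cell survival and identity followed the same direction. Dnd1, which protects germ cell transcripts, had 277 and 275 TPM in PGCLC_d3ag3, against 11.1 and 8.38 TPM in EpiLC. Kit, the receptor for stem cell factor, had 267 and 286 TPM in PGCLC_d3ag3, against 12.8 and 15 TPM in EpiLC. Dppa3, which shields DNA from methylation in the early embryo, had 467 and 509.9 TPM in PGCLC_d3ag3, against 38.7 and 26.8 TPM in EpiLC. No EpiLC library reached the PGCLC_d3ag3 level of any of the 3. Of 19 tested members of the specification list 15 were higher, 12 of them by at least 1, against 41.0% and 17.2% of all tested genes. The list's median difference was 3.12, against 0.05 over all genes. The 4 lower members were Pou5f1, Lin28a, Elavl2 and Rhox5, the last 2 of which are named here after their values were seen. Lin28a, which holds back let-7 maturation, had 200.0 and 229 TPM in PGCLC_d3ag3, against 538 and 547 TPM in EpiLC. Rhox5 belongs to a gene cluster whose copies may share reads, and its level is uncertain.

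Most genes of the gonadal stage were higher. Dazl, an RNA-binding protein gene that licenses germ cells for gametogenesis, had 763 and 806 TPM in PGCLC_d3ag3, against 13.6 and 13.6 TPM in EpiLC, a difference of 5.75 (SE 0.10, adjusted p = 1.7e-10). It was among the 12 largest rises of the ranking above. Its level in PGCLC_d3 was 0.39 and 0.347 TPM, below EpiLC. Mael, a piRNA pathway gene, had 58.9 and 52 TPM in PGCLC_d3ag3, against 4.03 and 2.72 TPM in EpiLC. Both genes were under 14 TPM in EpiLC. Brdt, a testis bromodomain gene, had 76.4 and 72.7 TPM in PGCLC_d3ag3, against 1.8 and 1.06 TPM in EpiLC. Tex101, a germ cell surface protein gene, had 118 and 114 TPM in PGCLC_d3ag3, against 3.65 and 2.01 TPM in EpiLC. Dmrt1, which encodes a regulator of germ cell and testis fate, had 25.6 and 33.8 TPM in PGCLC_d3ag3, against 0.291 and 0.226 TPM in EpiLC and 9.76 and 10.2 TPM in PGCLC_d3. Mael, Brdt, Tex101 and Dmrt1 exceeded EpiLC by at least 3.70 on the log2 scale with no overlap between libraries.

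Many piRNA and germ granule genes were higher too. Tdrd1, which encodes a Tudor protein of germ granules, had 31.7 and 32.2 TPM in PGCLC_d3ag3, against 3.15 and 2.62 TPM in EpiLC. Mov10l1, a helicase gene of piRNA production, had 69.1 and 71.8 TPM in PGCLC_d3ag3, against 7.83 and 8.33 TPM in EpiLC. Piwil2, which encodes a PIWI protein that binds piRNAs, had 63.6 and 59.5 TPM in PGCLC_d3ag3, against 11.8 and 9.7 TPM in EpiLC, and Stk31 had 138 and 145 TPM in PGCLC_d3ag3, against 17.2 and 14.2 TPM in EpiLC. These 4 genes, with Asz1 (1.84) and Rnf17 (1.92), differed by at least 1.84. Of 30 tested members of the gonadal list 23 were higher (76.7%, against 41.0% of all tested genes) and 18 of these by at least 1, with a median of 1.41. Tdrd7 and Sohlh2 were lower, Tdrd7 at 4.73 and 4.47 TPM in PGCLC_d3ag3, against 21.4 and 23.1 TPM in EpiLC. Nobox and Tdrd5 were lower as well, at levels under 3 TPM in all 4 libraries. Piwil1, Fkbp6 and Tex14 were not called.

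Ddx4 differed little between the groups. This helicase gene, also called Vasa and widely used to mark gonadal germ cells, had 204 and 201 TPM in PGCLC_d3ag3, against 162 and 134 TPM in EpiLC. The difference of 0.46 (SE 0.096, adjusted p = 0.00155) passed the test, and the libraries did not overlap, but it was smaller than the median absolute difference of all tested genes (0.68). Its level in PGCLC_d3 was 1.3 and 1.27 TPM. Other germline genes were likewise high in both groups and low in PGCLC_d3. Tex19.1 had 184 and 198 TPM in PGCLC_d3ag3, against 167 and 124 TPM in EpiLC, and 1.63 and 1.4 TPM in PGCLC_d3. Sohlh2, a germ cell transcription factor gene, had 57.4 and 60.8 TPM in PGCLC_d3ag3, against 104 and 85 TPM in EpiLC, and 0.233 and 0.269 TPM in PGCLC_d3. Rec114, a meiotic recombination gene, had 63.2 and 68.3 TPM in PGCLC_d3ag3, against 118 and 115 TPM in EpiLC, and 6.35 and 4.54 TPM in PGCLC_d3. For these 4 genes, of which Tex19.1, Sohlh2 and Rec114 were picked after their values were seen, EpiLC were already high and the intermediate PGCLC_d3 were low.

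**Figure D2:**
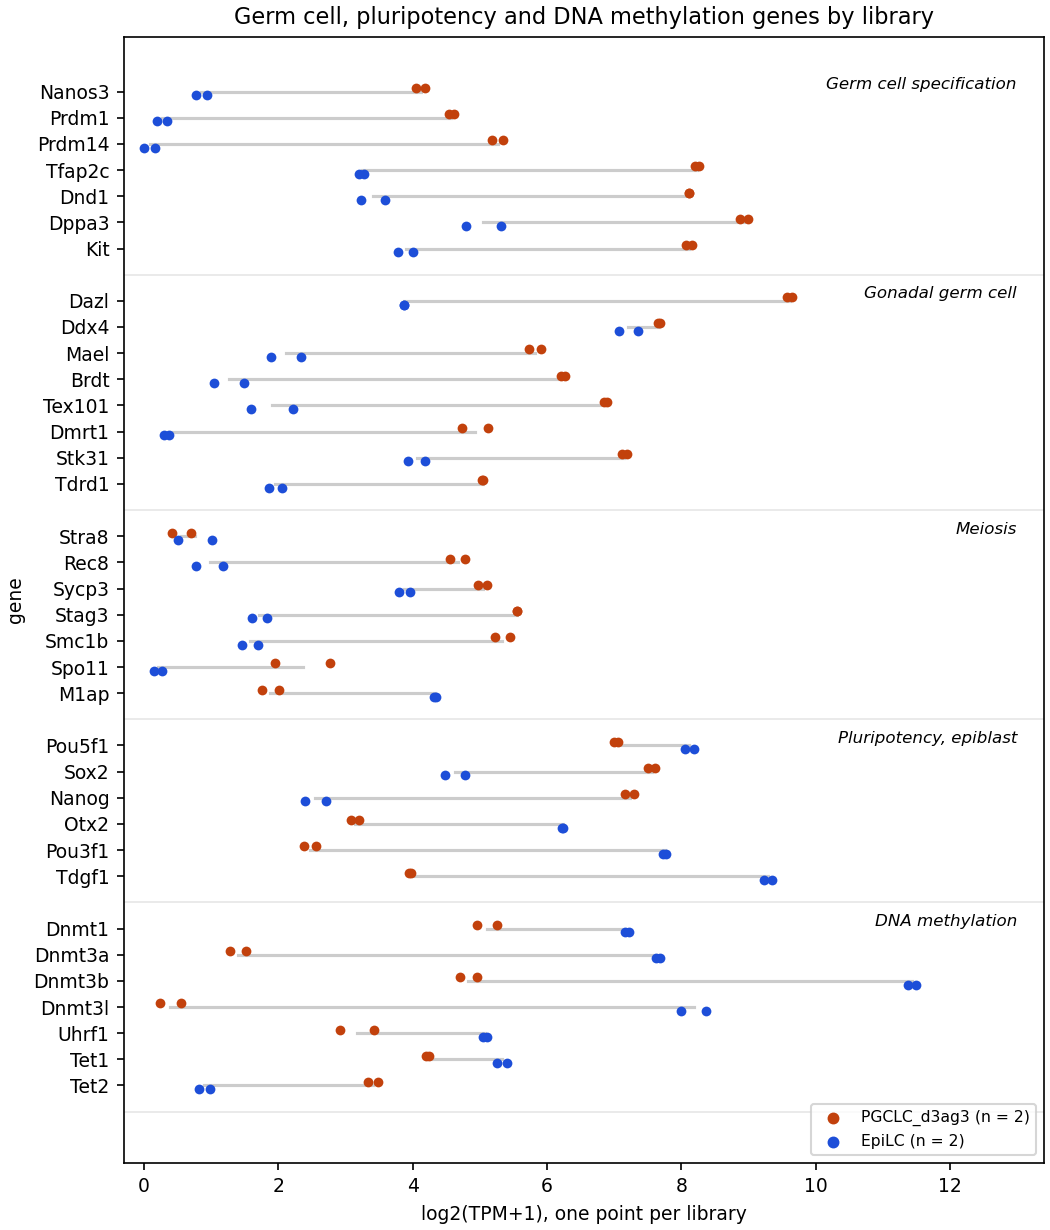
log2(TPM+1) of 35 germ cell, pluripotency and DNA methylation genes (horizontal axis), with one point per library, 2 of PGCLC_d3ag3 and 2 of EpiLC for each gene. Dazl stands at 763 and 806 TPM in PGCLC_d3ag3 against 13.6 TPM in both EpiLC libraries, Ddx4 is close in the groups, and Dnmt3a, Dnmt3b and Dnmt3l are high in EpiLC.

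Most tested meiotic genes were higher, while the genes that start meiosis stayed low. Stra8, the gene that gates entry into meiosis, had 0.326 and 0.629 TPM in PGCLC_d3ag3, against 1.01 and 0.42 TPM in EpiLC, too low to be tested. Its partner Meiosin had 0.192 and 0.32 TPM in PGCLC_d3ag3, against 0.357 and 0.925 TPM in EpiLC, and the recombinase gene Dmc1 had 0.0483 and 0.257 TPM in PGCLC_d3ag3, against 0.036 and 0.127 TPM in EpiLC. Neither reached the level set for testing. The cohesin subunit genes Rec8, Stag3 and Smc1b were clearly higher. Rec8 had 26.6 and 22.5 TPM in PGCLC_d3ag3, against 0.712 and 1.26 TPM in EpiLC. Stag3 had 45.9 and 45.8 TPM in PGCLC_d3ag3, against 2.05 and 2.55 TPM in EpiLC. Smc1b had 42.5 and 36.6 TPM in PGCLC_d3ag3, against 2.25 and 1.75 TPM in EpiLC. Their differences lay between 3.69 and 3.83 with SE from 0.14 to 0.17, and no library of one group overlapped the other.

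Genes of the synaptonemal complex, the scaffold that joins paired chromosomes, were also higher. Sycp3 had 30.5 and 33.4 TPM in PGCLC_d3ag3, against 14.6 and 12.8 TPM in EpiLC, a difference of 1.16 (SE 0.29, adjusted p = 0.00412). That call was lost with a pseudocount of 0.1 (adjusted p = 0.0673). Sycp1 had 13.1 and 15 TPM in PGCLC_d3ag3, against 1.49 and 1.47 TPM in EpiLC, with differences of 1.84 for Tex12 and 2.75 for Brme1, which acts with BRCA2 in meiosis. Spo11, which makes meiotic DNA breaks, had 5.79 and 2.88 TPM in PGCLC_d3ag3, against 0.205 and 0.106 TPM in EpiLC, so the aggregated libraries lay apart from each other but above both EpiLC libraries. Of 27 tested meiosis genes 19 were higher (70.4%), 15 by at least 1, and 6 were lower (22.2%), with a median of 1.15. Over all tested genes 41.0% were higher and 36.7% lower. Counting only genes with at least 5 TPM in 2 libraries, 11 of 18 were higher. The lower ones included M1ap (2.37 and 3.01 TPM in PGCLC_d3ag3 against 19.3 and 19 TPM in EpiLC), Terb1 (-1.57) and Tex15 (-1.24).

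Many germline genes are silenced in mouse embryonic stem cells by PRC1.6, whose E2F6 subunit binds E2F-type sites and whose MGA and MAX subunits bind E-boxes. The promoters were therefore read for both motifs. Windows of 250 bases before to 50 after each RefSeq gene start of the build GRCr8 were searched on both strands. The motifs were GCGGGA (E2F-type, read as TCCCGC on the other strand) and the palindrome CACGTG (E-box). Adjoining motifs can share an end letter, and such overlaps were not counted apart. A promoter was at hand for 26 of the 33 gonadal and meiosis genes that were higher by at least 1. Of these 26 promoters 15 (57.7%) held the E2F-type motif, 9 (34.6%) the E-box and 5 (19.2%) both. Over the 13944 named genes with a promoter the shares were 29.5%, 8.2% and 3.0%. The mean GC content was 58.8% in the 26 and 57.9% in all. Among the other tested genes of the same lists, 20 with a promoter, the shares were 35.0%, 40.0% and 15.0%, so the E-box was not more frequent in the genes that were higher. Over all 1653 promoters of tested genes that were higher by at least 1, the shares were 34.3%, 8.1% and 3.6%. A match is a description of the letters and not a bound site.

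The promoters of 3 higher genes with both motifs are shown, with Dazl as a higher gene with neither. Each runs 5′ to 3′ on the strand of its gene, and capitals mark the E2F-type and E-box letters.
Mael (chr13:81029574-81029873, minus strand): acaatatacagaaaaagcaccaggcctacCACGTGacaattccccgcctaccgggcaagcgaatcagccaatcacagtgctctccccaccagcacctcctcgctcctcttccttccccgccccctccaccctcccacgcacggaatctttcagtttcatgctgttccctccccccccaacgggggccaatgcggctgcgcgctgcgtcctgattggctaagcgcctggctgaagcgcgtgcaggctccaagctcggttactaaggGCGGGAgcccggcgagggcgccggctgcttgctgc
Tdrd1 (chr1:265880775-265881074, plus strand): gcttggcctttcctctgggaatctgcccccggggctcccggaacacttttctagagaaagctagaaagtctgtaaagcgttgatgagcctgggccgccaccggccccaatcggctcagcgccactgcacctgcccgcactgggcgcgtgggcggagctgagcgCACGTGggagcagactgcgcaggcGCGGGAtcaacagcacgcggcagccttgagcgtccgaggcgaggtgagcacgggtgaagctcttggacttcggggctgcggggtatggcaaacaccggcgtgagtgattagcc
Hormad1 (chr2:185805422-185805721, plus strand): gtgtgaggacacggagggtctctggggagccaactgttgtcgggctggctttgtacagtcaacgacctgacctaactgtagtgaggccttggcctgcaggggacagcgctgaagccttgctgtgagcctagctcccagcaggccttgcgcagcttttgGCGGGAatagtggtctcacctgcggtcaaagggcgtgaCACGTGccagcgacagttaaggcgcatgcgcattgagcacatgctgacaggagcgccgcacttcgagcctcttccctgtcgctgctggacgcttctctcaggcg
Dazl (chr9:18193113-18193412, plus strand): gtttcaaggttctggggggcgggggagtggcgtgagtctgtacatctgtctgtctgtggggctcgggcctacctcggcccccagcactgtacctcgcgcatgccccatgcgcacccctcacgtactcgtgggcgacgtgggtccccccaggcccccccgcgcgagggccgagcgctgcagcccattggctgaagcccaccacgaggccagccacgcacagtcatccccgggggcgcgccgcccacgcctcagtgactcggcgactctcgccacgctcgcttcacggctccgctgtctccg
In Mael the E-box lies far upstream and the E2F-type motif close to the start, in Tdrd1 and Hormad1 the motifs lie nearer each other, and Dazl held neither in this window. Hormad1, which encodes a protein of the meiotic chromosome axis, had 18.7 and 18.4 TPM in PGCLC_d3ag3, against 1.49 and 1.68 TPM in EpiLC. The 3 genes with both motifs differed by 3.70 (Mael), 3.09 (Tdrd1) and 2.92 (Hormad1), less than Dazl at 5.75.

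The PRC1.6 subunits themselves differed in both directions. Mga, the scaffold subunit, was lower with 12.6 and 10.4 TPM in PGCLC_d3ag3, against 32.6 and 32.4 TPM in EpiLC, a difference of -1.43 (SE 0.14). Max, its partner, had 34.2 and 41.7 TPM in PGCLC_d3ag3, against 58.2 and 45.9 TPM in EpiLC, and its call was lost in some other settings. Rnf2 (1.24), Yaf2 (1.48), Wdr5 (1.15) and Hdac2 (0.99), which also serve other complexes, were higher. E2f6 had 48 and 49.1 TPM in PGCLC_d3ag3, against 36.5 and 35.7 TPM in EpiLC, and Pcgf6, L3mbtl2 and Ring1 were not called. In all 8 of 14 tested subunits were higher (57.1%) and 3 lower (21.4%), against 41.0% and 36.7% of all tested genes. Their median was 0.21.

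Genes of DNA methylation were mostly lower, the de novo enzymes most of all. Dnmt3l, the cofactor of the de novo enzymes, had 0.455 and 0.178 TPM in PGCLC_d3ag3, against 331 and 255 TPM in EpiLC, a difference of -7.80 (SE 0.21, adjusted p = 1.6e-09). Dnmt3b had 25.1 and 30 TPM in PGCLC_d3ag3, against 2666 and 2887 TPM in EpiLC, and Dnmt3a had 1.43 and 1.88 TPM in PGCLC_d3ag3, against 196 and 205 TPM in EpiLC. In mean TPM the aggregated cells held Dnmt3a at a 121-fold and Dnmt3b at a 101-fold lower level. The maintenance genes fell less. Dnmt1 had 30 and 37.1 TPM in PGCLC_d3ag3, against 148 and 142 TPM in EpiLC. Uhrf1, which brings DNMT1 to replicated DNA, had 6.52 and 9.77 TPM in PGCLC_d3ag3, against 33.5 and 32 TPM in EpiLC. Their differences were -2.09 and -1.91 (SE 0.098 and 0.15).

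Other genes of the methylation machinery did not all follow. Zfp57, which keeps imprints methylated, had 0.689 and 0.92 TPM in PGCLC_d3ag3, against 12.3 and 11 TPM in EpiLC, while Hells, a chromatin remodeller that aids methylation, was higher with 195 and 204 TPM in PGCLC_d3ag3, against 114 and 115 TPM in EpiLC. Of 14 tested members 10 were lower, 8 of them by at least 1, against 36.7% and 17.0% of all genes. The 3 higher members were Hells, Mbd1 and Zbtb24, the last named after its value was seen. The TET dioxygenases, which oxidise methylcytosine, split. Tet1 had 17.3 and 18 TPM in PGCLC_d3ag3, against 37.1 and 41.3 TPM in EpiLC and Tet3 1.74 and 1.68 TPM in PGCLC_d3ag3 against 13.9 and 14.8 TPM in EpiLC, whereas Tet2 was higher with 9.06 and 10.2 TPM in PGCLC_d3ag3, against 0.753 and 0.974 TPM in EpiLC. Tet1 and Tet3 differed by -1.10 and -2.50, and Tet2 by 2.51 (SE 0.12, adjusted p = 4.2e-08). Among repair genes Ung, a uracil glycosylase gene, had 448 and 463 TPM in PGCLC_d3ag3, against 195 and 190.2 TPM in EpiLC, and Gadd45g (1.79) and Gadd45b (1.43) were higher. In all 10 of 18 tested demethylation and base excision genes were higher (55.6%) and 7 lower (38.9%), against 41.0% and 36.7% of all tested genes.

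Pluripotency genes did not move as a block. Nanog had 142 and 157 TPM in PGCLC_d3ag3, against 5.55 and 4.24 TPM in EpiLC, and Sox2 had 195 and 182 TPM in PGCLC_d3ag3, against 26.5 and 21.2 TPM in EpiLC, both higher, by 4.68 and 2.94. Pou5f1, which encodes OCT4, was lower with 127 and 133 TPM in PGCLC_d3ag3, against 289.8 and 265 TPM in EpiLC, a difference of -1.09 (SE 0.058, adjusted p = 9.1e-08). So these 3 core factors, read together, differed in opposite directions. Among naive genes, which mark the preimplantation epiblast, Nr5a2 had 24.7 and 32.7 TPM in PGCLC_d3ag3, against 0.0792 and 0.123 TPM in EpiLC. Gbx2 had 72.7 and 65.4 TPM in PGCLC_d3ag3, against 7.1 and 5.41 TPM in EpiLC, and Esrrb 13.6 and 14.7 TPM in PGCLC_d3ag3 against 0.968 and 0.527 TPM in EpiLC. Not all naive genes followed. Zfp42, also called Rex1, had 9.42 and 7.74 TPM in PGCLC_d3ag3, against 84.5 and 74 TPM in EpiLC, and Fgf4 had 0.867 and 0.132 TPM in PGCLC_d3ag3, against 85.4 and 70.7 TPM in EpiLC, both lower. Klf4 was not called, and Tbx3 was listed under 1 TPM in all 4 libraries. Of 18 tested naive genes 11 were higher (61.1%), 10 by at least 1, and 6 lower (33.3%), with a median of 1.35. Over all tested genes 41.0% were higher and 36.7% lower.

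General pluripotency genes shared by naive and primed cells were mostly lower. Tdgf1, the NODAL co-receptor gene also called Cripto, had 14.7 and 14.3 TPM in PGCLC_d3ag3, against 653 and 601 TPM in EpiLC. Foxd3 was listed at 0 in both PGCLC_d3ag3 libraries, against 20.2 and 17.4 TPM in EpiLC. Dppa4, which acts on chromatin in early embryos, had 15 and 13.7 TPM in PGCLC_d3ag3, against 176 and 174 TPM in EpiLC, and L1td1, an RNA-binding protein gene, 210.3 and 127 TPM in PGCLC_d3ag3 against 584 and 632 TPM in EpiLC. The libraries of the groups did not overlap for any of these genes. Of 16 tested members 13 were lower (81.2%, against 36.7% of all tested genes), 9 by at least 1, while Sox2 and Sall4 (0.43) were higher. The list's median was -1.12.

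Genes of the formative and primed epiblast were mostly lower. Pou3f1, also called Oct6, had 4.22 and 4.88 TPM in PGCLC_d3ag3, against 210.4 and 218 TPM in EpiLC. Otx2, which holds cells in epiblast fate and blocks germ cell entry in mouse, had 8.2 and 7.42 TPM in PGCLC_d3ag3, against 74.6 and 73.9 TPM in EpiLC. Sox3 had 0.597 and 0.189 TPM in PGCLC_d3ag3, against 74.5 and 79.6 TPM in EpiLC. In PGCLC_d3 Otx2 stood at 1.54 and 1.18 TPM, so the aggregated cells had more of it than the cells they came from, though far less than EpiLC. The zinc finger gene Sall2 (1.7 and 2.24 TPM in PGCLC_d3ag3 against 72.6 and 72.2 TPM in EpiLC) was lower too, as were Zic5 (-4.71) and Tead2 (-3.52). Fgf5, a classic mouse epiblast marker, was listed under 0.1 TPM in all 4 libraries and was not tested. Of 25 tested members 18 were lower (72.0%, against 36.7% of all tested genes), 17 of them by at least 1, with a median of -2.44. The lower members included Dnmt3a and Dnmt3b. The 7 higher members included Wnt8a (8.22 and 7.77 TPM in PGCLC_d3ag3 against 0 and 0 TPM in EpiLC) and the ERK effector gene Etv4 (26.6 and 30.3 TPM in PGCLC_d3ag3 against 3.25 and 3.16 TPM in EpiLC).

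**Figure D3:**
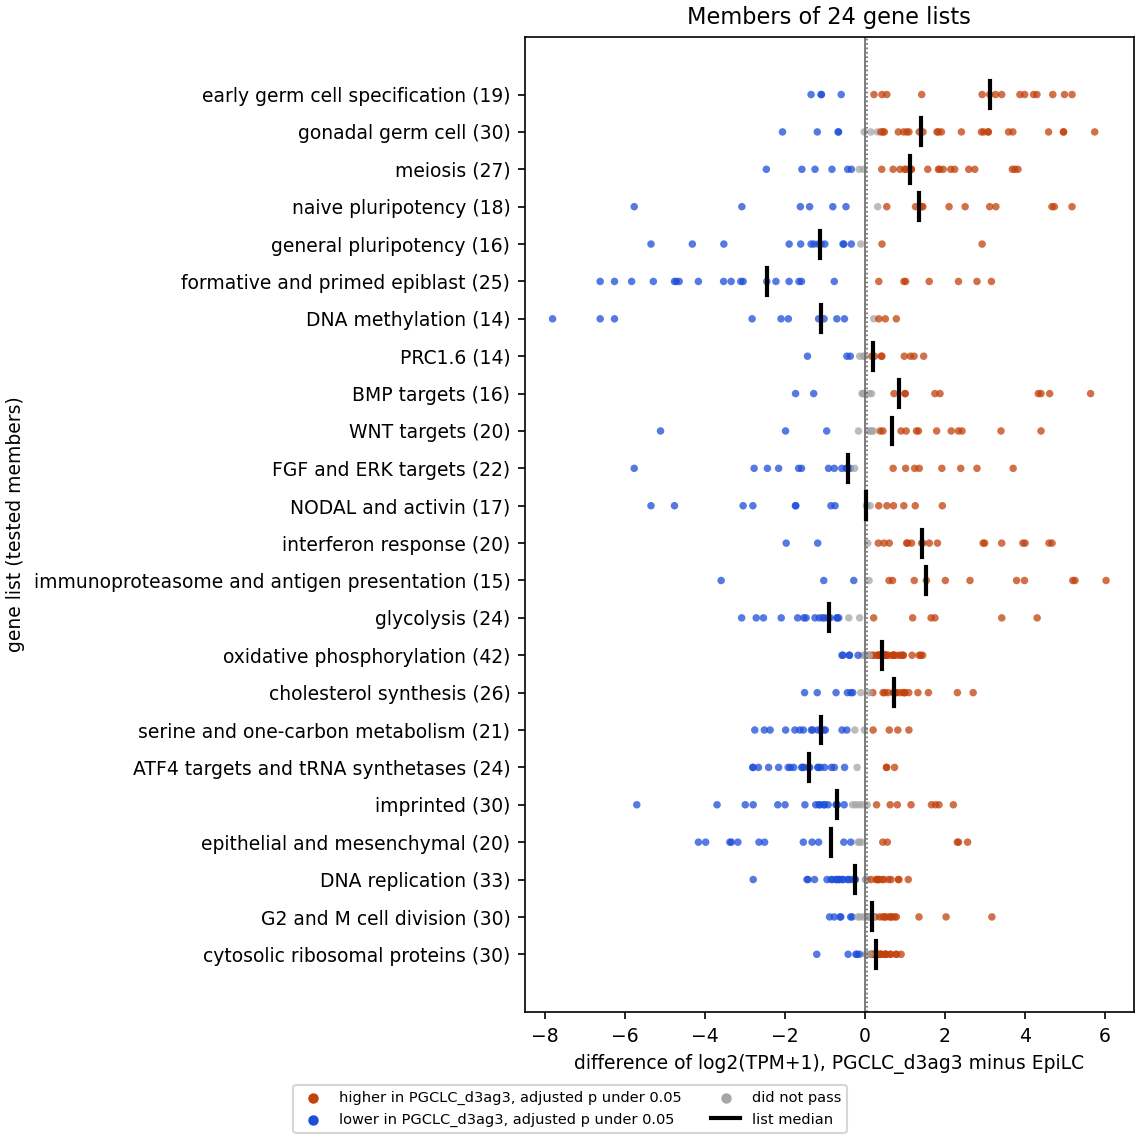
Differences of log2(TPM+1), PGCLC_d3ag3 minus EpiLC, for each tested member (points) of 24 gene lists (rows, number tested in brackets), coloured by the limma call; black bars are list medians and the dotted line is the median of all tested genes. Early germ cell genes have a median of 3.12 and formative epiblast genes one of -2.44, while cell division and ribosomal genes lie near 0.

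Targets of the BMP pathway were more often higher than lower. Id3, an inhibitor of differentiation, had 761 and 756 TPM in PGCLC_d3ag3, against 15.7 and 12.7 TPM in EpiLC, a difference of 5.65 (SE 0.086, adjusted p = 1.1e-10). The homeobox gene Msx1 had 27.9 and 31.6 TPM in PGCLC_d3ag3, against 0.409 and 0.636 TPM in EpiLC, and its relative Msx2 had 33.8 and 38.2 TPM in PGCLC_d3ag3, against 0.469 and 0.526 TPM in EpiLC. Smad6, an inhibitory SMAD gene of BMP feedback, had 39.2 and 37.5 TPM in PGCLC_d3ag3, against 0.856 and 0.851 TPM in EpiLC. Id1 (1.88) and Id4 (1.76) were higher, while Id2 was not called (59.9 and 67.1 TPM in PGCLC_d3ag3 against 65.2 and 66.1 TPM in EpiLC). Both libraries of PGCLC_d3ag3 exceeded both of EpiLC for the named higher genes. Of 16 tested targets 9 were higher (56.2%) and 2, Hand1 and Smad7, were lower (12.5%), against 41.0% and 36.7% of all tested genes. Levels in PGCLC_d3, taken directly after culture with BMP4, were above those of the aggregated cells for Id1 (278 and 318 TPM), Msx1 (173 and 177 TPM) and Msx2 (133 and 152 TPM). Id3 stood at 840 and 905 TPM and Smad6 at 51.7 and 58.3 TPM in PGCLC_d3. The labels' protocols name no BMP4 for the EpiLC medium or for the aggregation medium, and the part of BMP4 in these values was not tested.

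NODAL and FGF pathway genes shifted in both directions. The NODAL feedback genes were lower, Lefty1 with 21.6 and 19.9 TPM in PGCLC_d3ag3, against 158 and 198 TPM in EpiLC and Lefty2 with 0.196 and 0.119 TPM in PGCLC_d3ag3, against 28.3 and 32.2 TPM in EpiLC. Nodal itself had 71.5 and 72.2 TPM in PGCLC_d3ag3, against 51.2 and 61.2 TPM in EpiLC, slightly higher by 0.35. In PGCLC_d3 Lefty1 stood at 257 and 295 TPM and Lefty2 at 87 and 117 TPM, above EpiLC. EpiLC had been kept in activin A, a ligand of the same receptors, and its part in these values was not tested. Of 17 tested genes 8 were lower (47.1%) and 6 higher (35.3%), against 36.7% and 41.0% of all tested genes. In the FGF pathway Fgf4 was lower and the receptor genes Fgfr2 (56.1 and 55.8 TPM in PGCLC_d3ag3 against 2.15 and 5.01 TPM in EpiLC) and Fgfr3 (2.40) were higher. The ERK feedback genes Spry4 (-2.43), Phlda1 (-2.76) and Dusp6 (-1.58) were lower, and Egr1 (1.37) and Etv5 (1.02) were higher. In all 13 of 22 tested members were lower (59.1%) and 8 higher (36.4%), against 36.7% and 41.0% of all tested genes.

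WNT targets were more often higher. The antagonist gene Wif1 had 30.8 and 28.4 TPM in PGCLC_d3ag3, against 0.334 and 0.551 TPM in EpiLC, and 2.58 and 3.02 TPM in PGCLC_d3. Nkd1, a feedback inhibitor gene, had 18.9 and 21 TPM in PGCLC_d3ag3, against 0.805 and 1.16 TPM in EpiLC, and Tcf7 40.9 and 41.3 TPM in PGCLC_d3ag3 against 6.93 and 6.63 TPM in EpiLC. Ccnd1, which encodes cyclin D1, ran the other way with 1.25 and 1.16 TPM in PGCLC_d3ag3, against 70.8 and 78.7 TPM in EpiLC. Of 20 tested members 12 were higher (60.0%) and 3 lower (15.0%), against 41.0% and 36.7% of all tested genes, with a median of 0.68. Among 16 tested LIF and STAT3 targets 8 were higher (50.0%) and 3 lower (18.8%), against 41.0% and 36.7% of all tested genes. The higher ones included Fos and the feedback gene Socs3 (30 and 33.3 TPM in PGCLC_d3ag3 against 3.0 and 3.73 TPM in EpiLC). Stat3 itself was lower (-0.60). Fos, an immediate early gene that tissue dissociation also induces, had 264 and 262 TPM in PGCLC_d3ag3, against 7.07 and 8.75 TPM in EpiLC, and Egr2 had 17.9 and 17.3 TPM in PGCLC_d3ag3, against 0.276 and 0.516 TPM in EpiLC. Jun was lower with 7.58 and 5.65 TPM in PGCLC_d3ag3, against 14.4 and 18.6 TPM in EpiLC, as was Klf6 (-1.46). Of 21 tested immediate early and dissociation stress genes 14 were higher (66.7%), 8 by at least 1, and 3 lower (14.3%), against the same background shares. The sort of PGCLC_d3ag3 came after dissociation, and its part in these values was not tested.

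Retinoic acid genes, of interest because this signal induces meiosis in the ovary, showed no common direction. Aldh1a2, which makes retinoic acid, had 8.41 and 9.97 TPM in PGCLC_d3ag3, against 1.01 and 1.14 TPM in EpiLC, and the binding protein gene Crabp1 had 236 and 225 TPM in PGCLC_d3ag3, against 56.6 and 83.9 TPM in EpiLC. Rarg and Aldh1a1 were lower, at levels under 5 TPM. Of 16 tested members 7 were higher (43.8%) and 6 lower (37.5%), near the 41.0% and 36.7% of all tested genes. With no filter on low values 7 were higher and 8 lower.

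Most genes for antigen processing were higher. Psmb8 and Psmb9, catalytic subunits of the immunoproteasome, had 92.2 and 102 TPM in PGCLC_d3ag3, against 0.19 and 0.883 TPM in EpiLC for Psmb8, and 102 and 95.9 TPM in PGCLC_d3ag3, against 1.4 and 1.83 TPM in EpiLC for Psmb9. The proteasome activator genes Psme1 and Psme2 were abundant, Psme1 with 890.4 and 823 TPM in PGCLC_d3ag3, against 21.9 and 22.6 TPM in EpiLC and Psme2 with 685 and 670.4 TPM in PGCLC_d3ag3, against 40.2 and 43 TPM in EpiLC. The third catalytic subunit gene, Psmb10, went the other way with 4.42 and 4.34 TPM in PGCLC_d3ag3, against 73.3 and 55.1 TPM in EpiLC, a difference of -3.59 (SE 0.12, adjusted p = 4.2e-09). B2m, the light chain of class I molecules, was also lower (16.8 and 14.9 TPM in PGCLC_d3ag3 against 37.9 and 29 TPM in EpiLC). Of 15 tested members 11 were higher (73.3%) and 3 lower (20.0%), against 41.0% and 36.7% of all tested genes. In PGCLC_d3 Psmb8 stood at 530.2 and 512 TPM and Psmb10 at 204 and 184 TPM.

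Most interferon response genes were higher as well. Isg15 had 99.1 and 78 TPM in PGCLC_d3ag3, against 2.64 and 2.65 TPM in EpiLC, Irf1 differed by 3.96 and Ddx58, which encodes the RNA sensor RIG-I, by 4.68. Mx2, an antiviral GTPase gene, had 17.2 and 18 TPM in PGCLC_d3ag3, against 1.35 and 1.31 TPM in EpiLC. Of 20 tested members 17 were higher (85.0%, against 41.0% of all tested genes), 14 of them by at least 1. The 2 lower members, Rsad2 and Oasl, stayed under 6 TPM. Ifitm1, Ifitm2 and Ifitm3 were higher, but copies of this family may share reads, and their levels are uncertain.

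Surface and adhesion genes changed in a mixed way. Cxcr4, the receptor that guides migrating germ cells, had 21.7 and 16.3 TPM in PGCLC_d3ag3, against 0 and 0.141 TPM in EpiLC. Ret, the GDNF receptor gene, had 39.3 and 40 TPM in PGCLC_d3ag3, against 0.714 and 1.02 TPM in EpiLC. The epithelial cadherin gene Cdh1 was lower with 59.1 and 61.9 TPM in PGCLC_d3ag3, against 521 and 584 TPM in EpiLC, and Cdh2, the neural cadherin gene, was higher with 9.5 and 7.76 TPM in PGCLC_d3ag3, against 0.933 and 0.84 TPM in EpiLC. The claudin genes Cldn6 (-3.97), Cldn7 (-3.37) and Cldn4 (-3.33), and Grhl2, a regulator of epithelial genes (0.475 and 1.08 TPM in PGCLC_d3ag3 against 29.6 and 30.8 TPM in EpiLC), were lower. The integrin genes Itga6 (0.763 and 0.739 TPM in PGCLC_d3ag3 against 32.5 and 31.1 TPM in EpiLC) and Itgav (-2.83) were lower too. Of 20 tested epithelial and mesenchymal genes 12 were lower (60.0%) and 5 higher (25.0%), against 36.7% and 41.0% of all tested genes.

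Energy metabolism genes split by pathway. Most glucose uptake and glycolysis genes were lower. The glucose transporter gene Slc2a1 had 119 and 143 TPM in PGCLC_d3ag3, against 810.2 and 908 TPM in EpiLC. The phosphofructokinase gene Pfkm had 34.3 and 34.2 TPM in PGCLC_d3ag3, against 227 and 180.0 TPM in EpiLC, and Pfkp had 6.18 and 7.11 TPM in PGCLC_d3ag3, against 63.9 and 62.5 TPM in EpiLC. Both genes encode subunits of the enzyme that commits sugar to glycolysis, and neither group overlapped the other. Gapdh had 372 and 392 TPM in PGCLC_d3ag3, against 1159 and 1285 TPM in EpiLC, and Ldha, which makes lactate, 719 and 752 TPM in PGCLC_d3ag3 against 2029 and 2026 TPM in EpiLC. Several genes of steps from transport to lactate export shared the direction, including Pgk1 (-1.24), Pgam1 (-1.52), Pkm (-1.0) and Slc16a3 (-2.08). Exceptions, which were higher, included Aldoc (3.43), Ldhb (919 and 967 TPM in PGCLC_d3ag3 against 274 and 282 TPM in EpiLC) and the regulator gene Pfkfb3 (29.3 and 29.4 TPM in PGCLC_d3ag3 against 0.429 and 0.632 TPM in EpiLC). Of 24 tested members 16 were lower (66.7%), 10 by at least 1, and 6 higher (25.0%), 5 by at least 1, with a median of -0.88. Over all tested genes 36.7% were lower and 41.0% higher.

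Most respiratory chain genes were higher by small amounts. Ndufa5, a subunit gene of complex I, had 679.8 and 652 TPM in PGCLC_d3ag3, against 245 and 241 TPM in EpiLC. Ndufb8 of the same complex had 874 and 740.3 TPM in PGCLC_d3ag3, against 311 and 297 TPM in EpiLC. Uqcrc1 of complex III had 1221 and 1207 TPM in PGCLC_d3ag3, against 543 and 524 TPM in EpiLC. Sdha and Sdhb of complex II differed by 0.96 and 0.96. Of 42 tested nuclear genes 30 were higher, 5 lower and 7 not called, but only 4 were higher by at least 1, with a median of 0.44. The share of 71.4% higher compares with 41.0% over all genes. The 13 mitochondrially encoded genes together made up 41830 and 44670 TPM in PGCLC_d3ag3 and 38930 and 41080 TPM in EpiLC, ranges that did not overlap but lay close.

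**Figure D4:**
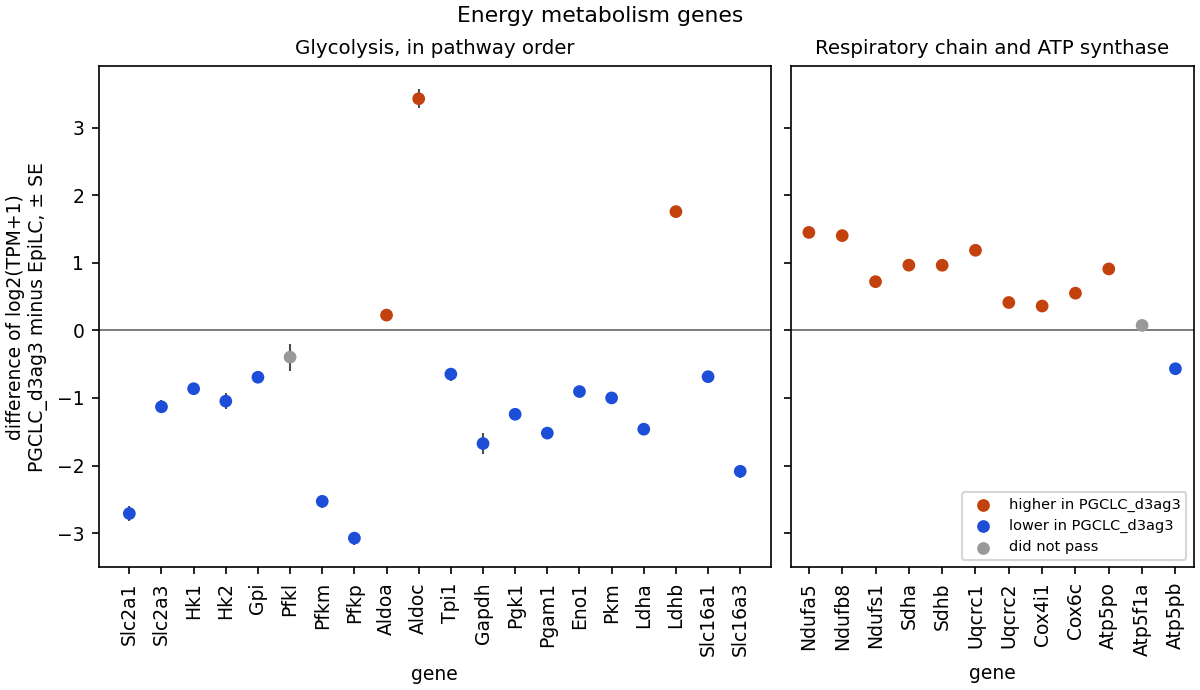
Differences of log2(TPM+1), PGCLC_d3ag3 minus EpiLC, with SE bars from limma, for 20 glycolysis genes in pathway order (left) and 12 respiratory chain and ATP synthase genes (right), from 2 libraries per group. Most glycolysis genes lie under 0, with Pfkp at -3.07, and Aldoc and Ldhb above it, while Ndufa5 and Ndufb8 reach 1.45 and 1.40.

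Genes of several biosynthetic and stress pathways were mostly lower. In serine and one-carbon metabolism, which feeds nucleotide synthesis and methylation, Gldc, of glycine breakdown, had 14.3 and 15.3 TPM in PGCLC_d3ag3, against 108 and 102 TPM in EpiLC, and Mthfd1l (-2.36) was lower. There 15 of 21 tested genes were lower, 12 by at least 1. Targets of the stress factor ATF4 and the tRNA synthetase genes were lower in 20 of 24 cases, 17 by at least 1, among them Cebpb (26.6 and 26.3 TPM in PGCLC_d3ag3 against 184 and 160.1 TPM in EpiLC), Chac1 (-2.79) and Iars1 (-2.40). Cdkn1a, the cell cycle inhibitor p21, had 2.47 and 2.25 TPM in PGCLC_d3ag3, against 27.8 and 24.2 TPM in EpiLC. Cholesterol synthesis genes ran against these falls, with 18 of 26 higher, including Sqle (185 and 200.0 TPM in PGCLC_d3ag3 against 75.5 and 76 TPM in EpiLC), Hsd17b7 (2.32) and Fdps (0.96). The shares were 71.4% lower for serine and one-carbon genes, 83.3% lower for ATF4 targets and tRNA synthetases and 69.2% higher for cholesterol genes. Over all tested genes 36.7% were lower and 41.0% higher.

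Cell cycle genes changed in both directions. Ccne1, which encodes cyclin E1, had 31.4 and 35.1 TPM in PGCLC_d3ag3, against 279 and 256 TPM in EpiLC, and Myc had 2.0 and 2.9 TPM in PGCLC_d3ag3, against 58.4 and 59.4 TPM in EpiLC. Mycl was higher with 26.5 and 27.4 TPM in PGCLC_d3ag3, against 4.74 and 5.37 TPM in EpiLC, so the 2 paralogs differed in opposite directions. The CDK inhibitor gene Cdkn2d was higher (23 and 24 TPM in PGCLC_d3ag3 against 1.98 and 2.47 TPM in EpiLC). Of 24 tested MYC family members and targets 16 were lower (66.7%), 5 by at least 1, and 3 higher (12.5%). Replication genes were lower in 18 of 33 cases (54.5%) and higher in 12 (36.4%), and only Pclaf, Orc1, Cdc6 and Rrm1 were lower by at least 1. Cell division genes were higher in 15 of 30 cases (50.0%) and lower in 6 (20.0%), with a median of 0.19. Over all tested genes 41.0% were higher and 36.7% lower. Cenpa, the centromeric histone, stood out with 231 and 250.4 TPM in PGCLC_d3ag3, against 25.6 and 25.6 TPM in EpiLC. Ribosomal protein genes differed by a median of 0.28.

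Imprinted genes were more often lower. Mest had 39 and 37.9 TPM in PGCLC_d3ag3, against 2066 and 2015 TPM in EpiLC, a difference of -5.69 (SE 0.060, adjusted p = 1.4e-11). Gnas had 18.2 and 19.6 TPM in PGCLC_d3ag3, against 249.9 and 261 TPM in EpiLC, and Peg10 8.53 and 12 TPM in PGCLC_d3ag3 against 79.2 and 72.6 TPM in EpiLC. Peg3 was higher, with 64.8 and 59.5 TPM in PGCLC_d3ag3, against 12 and 13.2 TPM in EpiLC, and stood at 412 and 444 TPM in PGCLC_d3. Snrpn (-1.49) and Igf2r (-1.14) were lower. Of 30 tested members 17 were lower (56.7%), 11 by at least 1, and 8 higher (26.7%), against 36.7% and 41.0% of all tested genes. Total levels do not show which parental copy was read.

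Of the 10 most abundant genes of each group, both ferritin genes stood out. Fth1 had 1666 and 1821 TPM in PGCLC_d3ag3, against 9475 and 8730 TPM in EpiLC, and Ftl1 1872 and 1926 TPM in PGCLC_d3ag3 against 9809 and 9120 TPM in EpiLC. Gstp1, a glutathione transferase gene, fell furthest of the abundant EpiLC genes, with 171 and 141 TPM in PGCLC_d3ag3, against 4132 and 4036 TPM in EpiLC. Actb differed by -0.66, COX3 by 0.67, and COX2 and Mif were not called.

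Markers of other cells bear on the purity of the sorted cells. Of 35 gonadal somatic genes measured, 18 were under 1 TPM in PGCLC_d3ag3, against 24 in EpiLC, and the list summed to 91.4 and 94.4 TPM in PGCLC_d3ag3, against 189 and 214 TPM in EpiLC. Of its 23 tested members 12 were higher (52.2%), 9 by at least 1, and 7 lower (30.4%), with a median of 0.42. The shares over all tested genes were 41.0% and 36.7%. Counting only genes with at least 5 TPM in 2 libraries, 4 were higher and 4 lower. The defining markers of these cells, 14 genes, summed to 17.8 and 18 TPM in PGCLC_d3ag3 and 22.6 and 22 TPM in EpiLC. Foxl2, the granulosa factor gene, had 0.289 and 0.461 TPM in PGCLC_d3ag3, against 0 and 0 TPM in EpiLC, and Wt1 had 1.28 and 1.17 TPM in PGCLC_d3ag3, against 0.285 and 0.327 TPM in EpiLC. In PGCLC_d3 Foxl2 stood at 0 and 0.0688 TPM and Wt1 at 0.0396 and 0.0614 TPM. The inhibin gene Inha was higher with 4.54 and 8.21 TPM in PGCLC_d3ag3, against 1.18 and 1.03 TPM in EpiLC. Inha stood at 1.819 and 1.502 TPM in PGCLC_d3 and 0.08523 and 0.0629 TPM in embryonic stem cells. Kitlg, the gene of the KIT ligand, was higher too, with 36.7 and 23.9 TPM in PGCLC_d3ag3, against 10 and 8.86 TPM in EpiLC. Kitlg stood at 25.46 and 23.99 TPM in PGCLC_d3 and 52.37 and 65.53 TPM in embryonic stem cells. Neither PGCLC_d3 nor the embryonic stem cells had been combined with gonadal cells. Nr5a1 was lower, with 0.867 and 0.747 TPM in PGCLC_d3ag3, against 8.13 and 8.23 TPM in EpiLC. Gata4, also a defining marker, was higher with 4.7 and 5.12 TPM in PGCLC_d3ag3, against 0.232 and 0.113 TPM in EpiLC. Its level in PGCLC_d3 was 2.66 and 2.55 TPM. Irx3, another marker of other cells, was higher by 2.73 and stood at 27.1 and 21.1 TPM in PGCLC_d3. Fibroblast and matrix genes summed to 38 and 46.2 TPM in PGCLC_d3ag3 against 106 and 161 TPM in EpiLC, with Lum, Acta2 and Fap at 0 in PGCLC_d3ag3 and Col1a1 at 0.312 and 0.631 TPM in PGCLC_d3ag3, against 6.43 and 14.5 TPM in EpiLC. Postn (6.7 and 8.45 TPM in PGCLC_d3ag3 against 0.212 and 0.588 TPM in EpiLC) and Col5a1 (2.06) were the 2 higher members. In PGCLC_d3 Postn stood at 0.134 and 0.309 TPM and Col5a1 at 6.235 and 6.175 TPM. Endothelial and blood genes summed to 194 and 199 TPM in PGCLC_d3ag3 against 67.3 and 62 TPM in EpiLC, most of it from Pecam1 (135 and 138 TPM in PGCLC_d3ag3 against 50.8 and 47.7 TPM in EpiLC), which pluripotent and germ cells also express. Pecam1 stood at 18.35 and 17.3 TPM in PGCLC_d3 and 102.8 and 104.8 TPM in embryonic stem cells. Of 11 tested endothelial and blood genes 7 were higher (63.6%) and 2 lower (18.2%). The defining blood and endothelial markers, 8 genes, summed to 51.4 and 49.7 TPM in PGCLC_d3ag3, against 1.17 and 1.47 TPM in EpiLC. Hemoglobin transcripts were present in PGCLC_d3ag3, with Hba-a1 at 44.1 and 35.5 TPM and Hbb at 4.81 and 11.3 TPM, while both were listed at 0 in EpiLC. In PGCLC_d3 Hba-a1 stood at 2.12 and 0.754 TPM and Hbb at 0 and 0 TPM. Hemoglobin genes are multi-copy and their levels are uncertain. The leukocyte gene Ptprc stayed under 0.1 TPM in all 4 libraries, and Tek, Emcn, C1qa and C1qb were listed at 0 in PGCLC_d3ag3. The defining germ cell markers, 9 genes, summed to 2364 and 2447 TPM in PGCLC_d3ag3 against 248 and 207 TPM in EpiLC. The germ cell sum includes Nanos3, whose reporter was used for sorting. The defining epiblast markers, 7 genes, summed to 1610 and 1679 TPM in PGCLC_d3ag3 against 5760 and 5859 TPM in EpiLC. Most of the PGCLC_d3ag3 sum came from Utf1. The markers Pou5f1, Dnmt3b, Tdgf1, Otx2 and Pou3f1 were each lower in PGCLC_d3ag3, and Fgf5 was under 0.1 TPM in all 4 libraries. The part of carried-over cells in any result was not tested.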

How the data were processed

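RNA was prepared with a PicoPure kit and libraries with SMART-Seq v4 and KAPA Hyper Prep kits, per the labels' protocols. The submitters' processing notes name bcl2fastq 2.20, cutadapt 1.1.6, HISAT2 2.1.0, Subread 1.6.5 with featureCounts, and the rat build rn7. Whether strand was used is not given in the sources used here, so reads of overlapping or antisense genes cannot be told apart. The authors deposited log2(TPM+1) values per gene and library, not read counts. Of the rows, 11066 have no gene name and were left out.

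Groups and replicate numbers come from the sample titles. The deposited log2 values entered limma (version 3.58.1, R 4.3.3) with lmFit, then eBayes with a trend, as a 2-sided test, with all 4 groups in one fit, 4 residual degrees of freedom and a prior of 5.46. The fit and the depth estimate were tested on simulated data. Depth is relative, because TPM keeps no totals, and 2 libraries per group limit the precision.

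Named genes were genes listed for the comparison, the 12 largest rises and falls past the test with separate libraries and a mean of at least 10 TPM, up to 4 and 2 members of each of 44 gene lists, the 10 most abundant genes of each group, and markers of other cells at 5 TPM or more. The largest rises and falls leave out clone-style symbols, such as those starting with LOC, RGD, AABR or Mir. Further list members in the text were chosen after their values were seen. The members and lists were chosen with earlier results of these data known. Promoter sequences are from RefSeq, build GRCr8, and no coordinate was carried to rn7. The alternatives changed the pseudocount, filter, scaling, variance model, block and libraries. Some genes are not reported here.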

Additional observations from a re-analysis of the deposited data

How the results depend on the processing

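All 14 alternatives were run. Genes called ranged from 8734 to 11779 across them, against 10546, and from 9734 to 10339 when 1 library was left out. Genes called with a difference of at least 1 numbered 4636, and 4672 to 4746 without 1 library; with log2(TPM+5) the number was 2698 and with log2(TPM+0.1) 5711, because a larger pseudocount shrinks differences of low genes. Genes whose libraries were separate and at least 1 apart numbered 3868, 4235 to 4399 without 1 library, 2312 with log2(TPM+5) and 5743 with log2(TPM+0.1). Settings that change only the test give no value of their own for this count. With the replicate block 10583 genes were called, and 4636 by at least 1. Deviations of same-numbered libraries correlated at 0.0207 between the groups, so no shared deviation was seen. This value cannot show whether same-numbered libraries share a culture or batch. Under quantile normalization the differences of COX2 and COX1 turned to 0.544 and 0.202. Of 282 tested named genes 279 were called, and 10 of these lost the call under at least 1 alternative (Sycp3, Max, Zp3, Nupr1, Sox1, Cdx2, ATP6, Actb, COX1 and ND1). Median-of-ratios rescaling moved the median gene from 0.049 to 0.004 and the share of higher genes among those called from 52.7% to 50.2%. The more frequent direction of calls turned for retinoic acid genes with no filter on low values (7 higher, 8 lower). In at least 1 alternative it became a tie for HOX, trophoblast and amnion, gonadal somatic, and endothelial and blood genes, and surface and migration genes were tied at 9 higher and 9 lower as reported. Depth limits statements on genes under 1 TPM, such as Stra8.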

Other observations

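Genes of embryonic lineages were low in both groups, with a few exceptions. Eomes, a primitive streak and endoderm regulator gene, had 0.254 and 0.342 TPM in PGCLC_d3ag3, against 45.8 and 44.4 TPM in EpiLC, a difference of -5.15 (SE 0.12, limma adjusted p = 6.8e-10). Tbxt, the mesoderm gene also called Brachyury, had 2.94 and 5.21 TPM in PGCLC_d3ag3, against 0.0468 and 0.164 TPM in EpiLC, and Gsc had 7.68 and 7.22 TPM in PGCLC_d3ag3, against 0.267 and 0.276 TPM in EpiLC. Sox17, an endoderm gene that also acts in human germ cells, had 9.41 and 10.7 TPM in PGCLC_d3ag3, against 0.676 and 0.639 TPM in EpiLC. Irx3 had 5.92 and 8.9 TPM in PGCLC_d3ag3, against 0.196 and 0.304 TPM in EpiLC, and Nes, which encodes an intermediate filament of neural progenitors, 14.1 and 12.8 TPM in PGCLC_d3ag3 against 4.27 and 4.4 TPM in EpiLC. Of 15 tested streak and mesoderm genes 7 were higher and 3 lower, and of 12 tested endoderm genes 5 were higher and 2 lower, against 41.0% and 36.7% of all genes. Few neural ectoderm genes could be tested, and 5 of these 6 were higher, with a median of 1.48. Sox1 was lower. The filter keeps genes through the groups where they are high. With no filter on low values 5 of 19 neural ectoderm genes were higher and 3 lower, with a median of 0.0. Of 17 tested trophoblast and amnion genes 8 were higher (47.1%) and 5 lower (29.4%), near the 41.0% and 36.7% of all tested genes. Krt19 stood at 8.24 and 9.16 TPM in PGCLC_d3ag3, against 1.34 and 0.753 TPM in EpiLC, and Krt18 at 61.6 and 55.1 TPM in PGCLC_d3ag3, against 163 and 156 TPM in EpiLC. HOX genes stayed low, with 2 of 11 tested higher and 1 lower.

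Oocyte genes were largely silent. Of 19 maternal effect and oocyte genes measured, 5 could be tested, and 3 were higher and 2 lower. With no filter on low values 4 of 16 were higher and 3 lower, with a median of 0.0. Ooep and Tle6, whose proteins sit in the subcortical complex of the mouse egg, had 8.31 and 12.2 TPM in PGCLC_d3ag3, against 1.96 and 0.819 TPM in EpiLC for Ooep and 9.55 and 10.7 TPM in PGCLC_d3ag3, against 1.81 and 2.08 TPM in EpiLC for Tle6. Khdc3, of the same complex, was lower with 0.345 and 0.567 TPM in PGCLC_d3ag3, against 5.92 and 4.0 TPM in EpiLC. The egg coat gene Zp3 had 1.38 and 2.52 TPM in PGCLC_d3ag3, against 4.6 and 3.03 TPM in EpiLC, with a call lost in some settings, and Gdf9, Bmp15 and Zar1 were listed under 0.1 TPM in all 4 libraries.

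Genes of the Y chromosome differed in both directions. Ddx3y was lower with 17 and 20.1 TPM in PGCLC_d3ag3, against 51.5 and 52.4 TPM in EpiLC, and 4.16 and 5.7 TPM in PGCLC_d3, and its X-linked partner Ddx3x was lower too, with 153 and 155 TPM in PGCLC_d3ag3, against 339 and 368 TPM in EpiLC. Uty was lower (4.41 and 3.13 TPM in PGCLC_d3ag3 against 11.4 and 11.1 TPM in EpiLC), and Usp9y was higher (4.1 and 3.67 TPM in PGCLC_d3ag3 against 0.503 and 0.318 TPM in EpiLC), the 1 higher gene among 9 tested X-linked and Y-linked genes. Kdm5d was not called (10.1 and 7.64 TPM in PGCLC_d3ag3 against 10.2 and 11.5 TPM in EpiLC), while its X-linked partner Kdm5c was lower (12.1 and 13.6 TPM in PGCLC_d3ag3 against 62.8 and 63.1 TPM in EpiLC). Eif2s3y had 266 and 273 TPM in PGCLC_d3ag3, against 250.1 and 246 TPM in EpiLC and was not called (adjusted p = 0.0571), so Y-linked transcripts were present in both groups, although the added gonadal cells came from females. Near-identical X and Y copies may share reads, so these levels are uncertain.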
